A study of Rattus norvegicus with 9 samples.

Results

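T cell markers were examined in RNA sequencing of rat dorsal root ganglion (DRG), the cluster of sensory neuron cell bodies beside the spinal cord. The markers are the 10 genes with the symbols Cd3d, Cd3e, Cd3g, Cd247, Cd2, Cd4, Cd5, Cd8a, Lck and Zap70, chosen by name from 20194 genes, and all 10 had enough reads to be tested. All libraries came from male Sprague Dawley rats. There were 3 libraries after a sham operation (sham), 3 after spared nerve injury (SNI), in which branches of the sciatic nerve are cut and one is left intact, and 3 after SNI with G15, an antagonist of the estrogen receptor GPER (SNI_G15). Per the labels, intrathecal catheters were placed on day 5 after SNI and drugs dissolved in 2% DMSO were given for 24 h. The labels give this protocol for every sample and mark the sham and SNI samples as G15 controls without naming what these received. The sources differ on the number of rats used, and none says whether a library is 1 rat or a pool, so the p-values measure only the spread between these libraries, which may be technical. The labels' extraction text names macrophages rather than DRG. Sensory neuron genes were the most abundant of the cell type lists in every library (between 22500 and 28800 CPM in sum, CPM being normalized read counts scaled to a common library size), as the tissue label would have it.

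T cells recognise peptide fragments through a receptor whose chains cannot signal alone. The CD3 chains encoded by Cd3d, Cd3e and Cd3g, together with the zeta chain encoded by Cd247, carry the signal into the cell, where the kinase Lck phosphorylates their tails and the kinase Zap70 docks on them. CD4 and CD8 are co-receptors that bind MHC molecules and bring Lck to the receptor, and CD2 and CD5 are surface molecules that tune the response. T cells are known to enter the DRG after injury of its nerve. In the rat, CD4 is also carried by macrophages and CD8 alpha chains also by natural killer (NK) cells and some macrophages, so neither marks T cells alone.

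The promoters of the CD3 chain genes and of Cd8a are shown because Cd3d, Cd3e and Cd8a gave the calls between SNI_G15 and SNI, and Cd3g, which did not pass, lies beside Cd3d. Each sequence runs 5′ to 3′ on the gene's strand from 250 bases before to 50 bases after the annotated start (RefSeq, build GRCr8), and 9 of the 10 markers had an entry (Cd4 did not). Capitals mark matches, on either strand, to AGGAAG (an ETS factor motif) or TTCNNNGAA (a STAT motif). Cd3d lies on chr8:54185269-54185568 (plus strand), Cd3e on chr8:54211721-54212020 (minus strand), Cd3g on chr8:54183869-54184168 (minus strand) and Cd8a on chr4:104923866-104924165 (plus strand).
Cd3d: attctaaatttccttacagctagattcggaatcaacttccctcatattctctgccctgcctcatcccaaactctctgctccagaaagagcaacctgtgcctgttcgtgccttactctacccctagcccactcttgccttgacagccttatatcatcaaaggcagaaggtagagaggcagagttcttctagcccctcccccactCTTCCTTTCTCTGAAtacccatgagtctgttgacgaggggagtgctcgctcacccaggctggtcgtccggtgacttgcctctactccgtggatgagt
Cd3e: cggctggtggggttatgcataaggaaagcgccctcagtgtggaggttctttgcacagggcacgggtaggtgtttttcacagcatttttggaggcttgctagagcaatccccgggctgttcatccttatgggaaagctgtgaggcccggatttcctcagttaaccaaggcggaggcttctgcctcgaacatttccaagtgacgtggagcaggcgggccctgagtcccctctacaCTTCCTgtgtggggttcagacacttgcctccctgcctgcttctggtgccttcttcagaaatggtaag
Cd3g: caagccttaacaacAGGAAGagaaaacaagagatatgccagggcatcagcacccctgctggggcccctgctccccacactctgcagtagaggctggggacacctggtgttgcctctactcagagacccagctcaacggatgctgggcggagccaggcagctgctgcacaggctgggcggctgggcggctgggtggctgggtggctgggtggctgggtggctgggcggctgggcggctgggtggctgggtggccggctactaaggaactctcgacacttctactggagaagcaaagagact
Cd8a: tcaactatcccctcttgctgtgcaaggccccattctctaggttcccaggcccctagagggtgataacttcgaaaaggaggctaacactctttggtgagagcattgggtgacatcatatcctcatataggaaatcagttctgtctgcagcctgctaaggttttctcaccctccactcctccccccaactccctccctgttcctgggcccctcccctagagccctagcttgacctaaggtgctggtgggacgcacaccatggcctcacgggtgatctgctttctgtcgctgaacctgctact

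Cd3g, Cd3d and Cd3e are consecutive genes in GRCr8. Cd3g and Cd3d point away from each other, with 1601 bases between their start sites, and the start of Cd3e lies 26251 bases from that of Cd3d. AGGAAG was found in 7 of the 9 promoters and in 34.5% of 33469 RefSeq promoters of the same length. In Cd3d the match was followed directly by the single TTCNNNGAA match among the markers, a motif held by 8.87% of all promoters. The Cd8a window held neither. TGTGGT (a RUNX motif, in 17.3% of all promoters) occurred in 2 of the 9, those of Cd2 and Lck. The motif AGATAA of the factors that control blood cell fate (11.6% of all promoters) occurred in 0 of the 9, and so did TATAAA, the box that positions the polymerase (14.2%). These matches describe letters in a window and say nothing of binding.

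Library totals lay between 18484557 and 18756736 estimated reads, so depth was alike in all groups. At this depth the markers were near the lower end of what the data can show. No 2 libraries of a group agreed within sampling noise. SNI_G15 replicate 3 differed most, with a chi-square per degree of freedom of 8.13 against replicate 1 and 7.89 against replicate 2. All other pairs within a group lay between 2.5 and 4.44. Levels were compared between genes as FPKM, which is scaled for length and library total. Cd4 had a mean of 12.2 FPKM in sham, whereas the other 9 markers had means between 0.0433 (Cd5) and 1.28 (Lck). In estimated reads, the 3 CD3 chain genes together held 17, 25 and 27 reads in the sham libraries, against 673, 713 and 695 for Cd4 alone. Cd4 made up between 83.6% and 84.3% of all reads of the 10 markers in sham, so a sum over the list mostly reports Cd4. In bulk tissue, fewer cells of a type and less RNA per cell cannot be told apart.

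**Figure D1:**
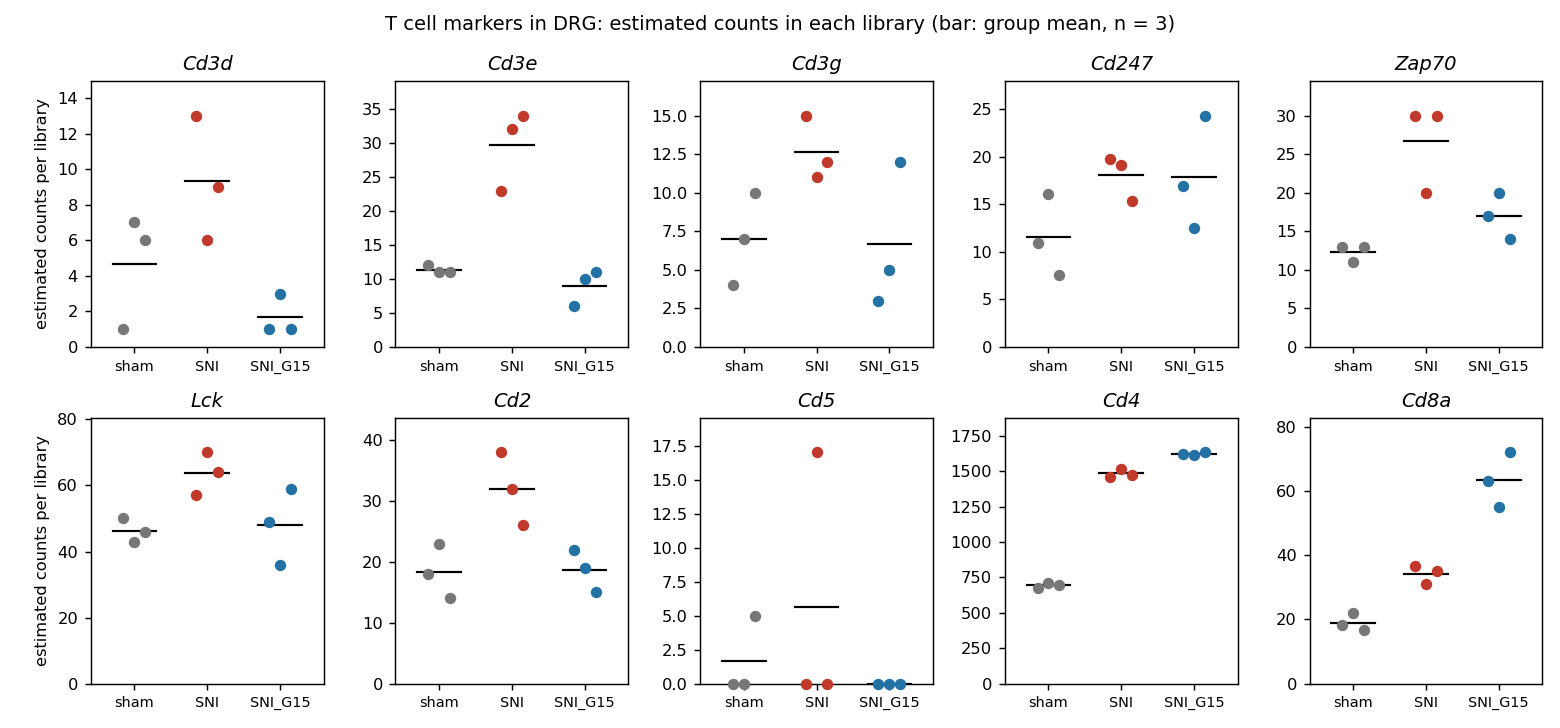
Estimated counts per library (y axis, linear, starting at 0) of the 10 T cell markers in the sham, SNI and SNI_G15 groups (x axis), with points for the 3 libraries of a group and a bar for their mean. Cd3e stands between 23 and 34 in SNI and at 12 or below in every other library, whereas Cd4 and Cd8a are highest in SNI_G15.

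The first comparison, SNI with sham, asks which markers differ after nerve injury. Of the 10 markers, 5 rose (Cd3e, Zap70, Cd4, Cd8a and Cd2) and 0 fell in edgeR's quasi-likelihood test at an adjusted p below 0.05, where 19.6% of the 18085 genes tested were called higher and 18.6% lower. The median log2 fold change of the 10 was 0.88, against 0.004 over all genes tested. With DESeq2, 2 of the 10 were called, Cd3e and Cd4. The second comparison, SNI_G15 with SNI, asks what differs with the antagonist after injury. Here Cd8a rose and Cd3d and Cd3e fell, 3 of 10 markers, where 11.3% of all genes were called, 5.94% higher and 5.36% lower. Their median was -0.70, against 0.007 over all genes. Without SNI replicate 2 the 3 calls became 1, that of Cd3e. Between SNI_G15 and sham, 2 of 10 markers were called higher (Cd4 and Cd8a) and 0 lower, where 18.7% of all genes were called higher and 17.6% lower. The comparisons share libraries, so their values are not independent of each other.

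Cd3e, which encodes the CD3 epsilon chain, gave the clearest pattern of the receptor genes. It held 12, 11 and 11 estimated reads in the sham libraries, 23, 32 and 34 in SNI, and 6, 10 and 11 in SNI_G15. Every SNI library lay above every other library, and the sham and SNI_G15 libraries overlapped. The gene rose 2.55-fold from sham to SNI (log2 fold change 1.34 ± 0.27, SE, edgeR adjusted p = 0.00249), and its level in SNI_G15 was 0.303 of that in SNI (log2 fold change -1.69 ± 0.31, adjusted p = 0.00829). Both calls held in each of the 14 alternatives run for each comparison, with adjusted p between 0.00216 and 0.0143 for injury and between 0.00252 and 0.0446 for SNI_G15 against SNI. Against sham, SNI_G15 gave a log2 fold change of -0.37 ± 0.35 (adjusted p = 0.465).

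Cd3d, which encodes the CD3 delta chain, was the marker with the next fewest reads after Cd5. The sham libraries held 1, 7 and 6 estimated reads, the SNI libraries 13, 6 and 9, and the SNI_G15 libraries 1, 3 and 1. The SNI_G15 libraries all lay below the SNI libraries, and sham overlapped both. The fall from SNI to SNI_G15 passed the test (log2 fold change -2.39 ± 0.59, edgeR adjusted p = 0.032). It rests on 5 reads against 28, a ratio of 0.179 with an exact 95% interval of 0.0538 to 0.468 for counting error alone. The call was lost when any of SNI replicates 1, 2 or 3 was left out (adjusted p = 0.115, 0.0504 and 0.0971) or SNI_G15 replicate 1 or 3 (0.0791 and 0.068). It was also lost with the replicate number as a block (0.0699). The rise from sham to SNI did not pass (0.95 ± 0.57 on the log2 scale, adjusted p = 0.223).

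Cd3g encodes the CD3 gamma chain. Its libraries held 4, 7 and 10 estimated reads in sham, 15, 11 and 12 in SNI, and 3, 5 and 12 in SNI_G15. SNI lay above sham in every library, but SNI_G15 replicate 3 reached the SNI range. Neither the SNI difference (log2 fold change 0.81 ± 0.40, edgeR adjusted p = 0.139) nor that of SNI_G15 from SNI (-0.90 ± 0.47, adjusted p = 0.246) passed the test.

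The summed level of the 3 CD3 chain genes is given as a description, with no test. It was 0.931, 1.37 and 1.48 CPM in sham (1.26 ± 0.289, SD, n = 3), 2.73, 2.6 and 2.94 CPM in SNI (2.76 ± 0.175) and 0.531, 0.966 and 1.28 CPM in SNI_G15 (0.925 ± 0.375). Most reads of the sum in SNI were those of Cd3e, 89 against 28 for Cd3d and 38 for Cd3g. In the sum the SNI libraries stood apart from all others, and SNI_G15 and sham overlapped. The mean in SNI was 2.19 times that in sham, the mean in SNI_G15 was 0.335 of that in SNI, and it was 0.735 of that in sham.

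Cd247, the zeta chain, did not follow the other chains between SNI and SNI_G15 in these values, although that difference between genes was not tested. It held 10.9, 16.1 and 7.52 estimated reads in sham, 19.7, 19.1 and 15.4 in SNI, and 17.0, 12.5 and 24.3 in SNI_G15, and all groups overlapped. The log2 fold change was 0.58 ± 0.33 for SNI against sham (edgeR adjusted p = 0.19) and -0.01 ± 0.31 for SNI_G15 against SNI (adjusted p = 0.988), and the sign of the second turned when single libraries were left out. Its estimated counts were not whole numbers in any of the 9 libraries, so part of its reads was divided among genes by estimate.

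The kinases differed from each other in depth. Zap70, which docks on the phosphorylated receptor chains, held 13, 11 and 13 estimated reads in sham, 30, 20 and 30 in SNI, and 17, 20 and 14 in SNI_G15. SNI lay above sham without overlap, and the lowest SNI library equalled the highest SNI_G15 library. Zap70 rose 2.11-fold in SNI (log2 fold change 1.07 ± 0.28, edgeR adjusted p = 0.0116), though not in DESeq2 (adjusted p = 0.0662), and its value in SNI_G15 against SNI was -0.63 ± 0.27 (adjusted p = 0.158). Lck, which starts the signal and is also used by NK cells, held 50, 43 and 46 reads in sham, 57, 70 and 64 in SNI, and 49, 36 and 59 in SNI_G15. The SNI libraries lay above the sham libraries by a small margin that missed the threshold (0.42 ± 0.16, adjusted p = 0.0534), and passed it with library totals alone (0.0401), in limma (0.047) and without SNI replicate 1 (0.0496). SNI_G15 overlapped both other groups for Lck (-0.39 ± 0.20 against SNI, adjusted p = 0.226). Lck overlaps the gene LOC120102985 in GRCr8, and whether the counting used strand is not given in the sources used here, so its reads are uncertain.

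Cd2, an adhesion molecule of T and NK cells, held 18, 23 and 14 estimated reads in sham, 38, 32 and 26 in SNI, and 22, 19 and 15 in SNI_G15. SNI lay above both other groups in every library. The rise in SNI passed (1.70-fold, log2 fold change 0.76 ± 0.26, edgeR adjusted p = 0.0408), but it was lost in DESeq2 (0.156) and without sham replicate 1 (0.0966) or 3 (0.128) or SNI replicate 1 (0.14) or 2 (0.0951). The value in SNI_G15 against SNI, -0.76 ± 0.25, did not pass (adjusted p = 0.0781). Cd5, a receptor that dampens T cell signals, was detected in 2 of the 9 libraries, with 5 reads in sham replicate 3 and 17 in SNI replicate 2. The 7 libraries at 0, all 3 of SNI_G15 among them, allow up to 3 reads each. No fold change is given for it, and its adjusted p was 0.413 for SNI against sham and 0.213 for SNI_G15 against SNI.

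Cd4 was the one marker with high counts, and these had decimals in all 9 libraries. It held 673, 713 and 695 estimated reads in sham, 1461, 1518 and 1474 in SNI, and 1618, 1615 and 1632 in SNI_G15. The 3 groups did not overlap. Cd4 rose 2.09-fold from sham to SNI (log2 fold change 1.06 ± 0.05, edgeR adjusted p = 2.18e-08) and stood 2.28-fold above sham in SNI_G15 (1.19 ± 0.05, adjusted p = 1.35e-07). The difference of SNI_G15 from SNI was 0.14 ± 0.04 and missed the threshold (adjusted p = 0.0569), which it passed under the filter on FPKM (0.0471) and without SNI_G15 replicate 3 (0.0465).

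The level of Cd4 moved with the summed level of a list of macrophage genes. The 14 genes of that list include Csf1r, the receptor for the macrophage growth factor CSF1. They summed to 781 to 862 CPM in sham, 1790 to 1860 CPM after SNI and 1910 to 1990 CPM in SNI_G15. Lyz2 and Cd74 held much of that sum, with means of 881 and 419 CPM of 1830 in SNI, and 1020 and 349 of 1960 in SNI_G15. From sham to SNI 12 of the 14 rose with 0 lower, where 19.6% of all genes were called higher and 18.6% lower. From SNI to SNI_G15 5 rose and 1, Cd74, fell, where 5.94% of all genes were called higher and 5.36% lower. Csf1r held 891 to 924 estimated reads in the sham libraries, 1678 to 1802 after SNI and 1837 to 2090 with SNI_G15. In the same order, Cd68 held 178 to 210, 524 to 570 and 445 to 535 reads. Itgam held 60 to 99, 272 to 292 and 268 to 301. For both of these genes SNI_G15 overlapped SNI. Per 100 CPM of the macrophage list, Cd4 stood at 4.52 to 4.75 CPM in sham, between 4.2 and 4.4 in SNI, and between 4.36 and 4.5 in SNI_G15. The part of macrophages in the Cd4 result was not tested.

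Against the CD3 chains, Cd4 moved apart in SNI_G15. The ratio of Cd4 to summed CD3 chain FPKM was 13.3, 8.04 and 7.38 in sham, 8.27, 10.7 and 8.56 in SNI, and 45.8, 24.8 and 20.3 in SNI_G15. The SNI_G15 libraries lay above all others, and sham and SNI overlapped. These ratios have few reads below the line and are given with no test.

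Cd8a, the alpha chain of the CD8 co-receptor, was the marker called higher in SNI_G15 than in SNI. It held 18.1, 22 and 16.8 estimated reads in sham, 36.6, 31 and 35.1 in SNI, and 63, 55.0 and 72.0 in SNI_G15. The 3 groups did not overlap. The rise from sham to SNI was 1.76-fold (log2 fold change 0.81 ± 0.22, edgeR adjusted p = 0.0142, and 0.102 in DESeq2) and that from SNI to SNI_G15 was 1.84-fold (0.89 ± 0.18, adjusted p = 0.0118, and 0.0576 without SNI replicate 2). SNI_G15 stood 3.25-fold above sham (1.69 ± 0.20, adjusted p = 9.72e-05). Estimated counts of Cd8a had decimals in 6 of the 9 libraries, and 90.1% of its reads were assigned to 1 of its 2 transcripts.

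Cd8b, the beta chain that pairs with CD8 alpha on conventional cytotoxic T cells, did not show the same steps. It held 2, 5 and 3 estimated reads in sham, 13, 15 and 13 in SNI, and 10, 8 and 9 in SNI_G15. It rose from sham to SNI (log2 fold change 1.96 ± 0.43, edgeR adjusted p = 0.00406; 41 reads against 10, a ratio of 4.1 with an exact 95% counting interval of 2.02 to 9.18). Its value in SNI_G15 against SNI was -0.58 ± 0.29 (adjusted p = 0.263). The ratio of Cd8a to Cd8b FPKM was 7.44, 3.91 and 4.77 in sham, 2.45, 1.86 and 2.23 in SNI, and 5.74, 6.06 and 6.95 in SNI_G15. SNI was below both other groups in every library. Few Cd8b reads lie behind these ratios, 2 to 5 in sham, 8 to 10 in SNI_G15 and 13 to 15 in SNI. The difference between Cd8a and Cd8b was not tested.

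**Figure D2:**
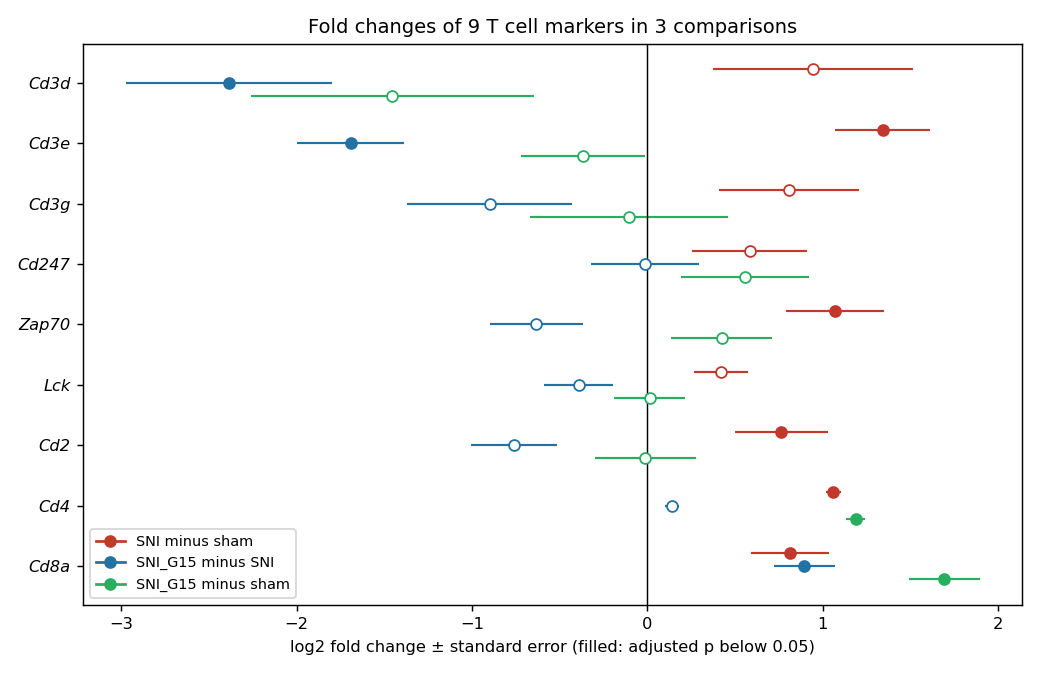
Log2 fold change (x axis) of 9 T cell markers (y axis) in 3 comparisons, with bars for the standard error and filled points for an adjusted p below 0.05 in edgeR, n = 3 libraries a group. Cd3d and Cd3e lie far below 0 for SNI_G15 minus SNI, at -2.39 and -1.69, while Cd8a lies at 0.89, and Cd5 is left out because 7 of its 9 libraries held no read.

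**Figure D3:**
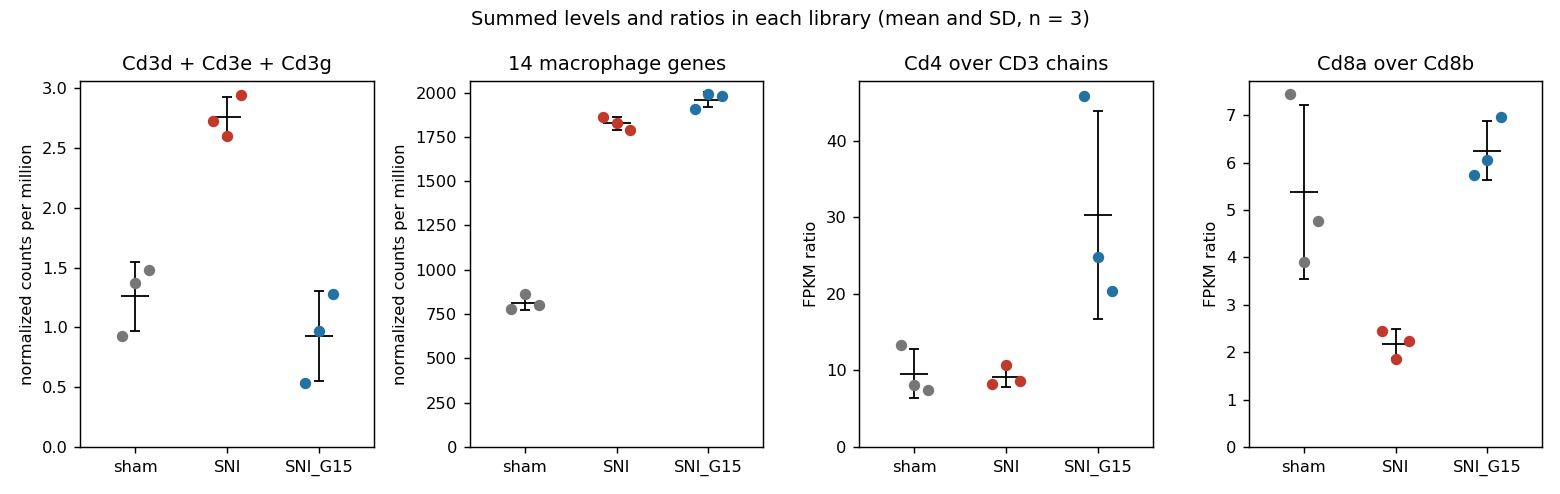
Values in each library (points) with the mean and SD (bars, n = 3) for sham, SNI and SNI_G15 on linear axes from 0. The summed CD3 chain level peaks in SNI at 2.6 to 2.94 CPM, the summed macrophage level stays at 1790 CPM or more in SNI and SNI_G15, the Cd4 to CD3 chain ratio is at least 20.3 in SNI_G15, and the Cd8a to Cd8b ratio is lowest in SNI.

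Other genes of T cells were taken from a list of 44, of which 38 could be tested. The constant genes of the receptor itself (Trac, Trbc1, Trbc2, Tcrb and Trdc) were not matched to a symbol in the files and are not analysed here. From sham to SNI 14 of the 38 rose and 2 fell, where 19.6% of all genes were called higher and 18.6% lower, and their median was 0.84 on the log2 scale. Among those with the smallest adjusted p were Lcp2, an adaptor below Zap70 (0.87 ± 0.10), Il7r, the receptor for interleukin-7 (0.39 ± 0.05), the kinase gene Prkcq (-0.59 ± 0.08) and the co-stimulator Cd28 (1.70 ± 0.23). Prkcq fell, with 303 to 317 estimated reads in sham and 191 to 225 in SNI. Il7r held 580 to 607 reads in sham, far more than any CD3 chain gene. The list thus holds genes that rose and genes that fell. Il7r and Prkcq stood well above the receptor chains in reads. Other genes of the list did not, such as Cd28 with 12 to 17 reads in sham.

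Between SNI and SNI_G15, 1 of the 38 rose and 4 fell, where 5.94% of all genes were called higher and 5.36% lower, with a median of -0.43. Il7r fell by 0.44 on the log2 scale (± 0.05) and held 573 to 607 reads in SNI_G15, a range that took in that of the sham libraries. Cxcr3, a chemokine receptor of activated T cells (-1.20 ± 0.31), Ptprcap, a partner of CD45 (-1.18 ± 0.31), and Cd52 (-0.85 ± 0.23) were also lower, and Cd7 was higher (0.47 ± 0.12). The calls of Cxcr3, Ptprcap, Cd52 and Cd7 were lost in 7, 6, 8 and 6 of their alternatives. Cd28 held 12, 17 and 14 estimated reads in sham, 53, 49 and 42 in SNI, and 37, 29 and 20 in SNI_G15. All of its SNI libraries lay above SNI_G15, but the difference did not pass (-0.73 ± 0.24, edgeR adjusted p = 0.0792). Foxp3, the factor of regulatory T cells, stayed between 3.03 and 7.97 reads in every library.

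NK cells share Cd2, Lck, Cd247 and in the rat Cd8a with T cells, and 16 of the 19 genes of their list could be tested. From sham to SNI 5 rose and 1 fell (median 0.83 on the log2 scale), where 19.6% of all genes were called higher and 18.6% lower. From SNI to SNI_G15 0 rose and 2 fell (median -0.56), where 5.94% of all genes were called higher and 5.36% lower. Klrk1, an activating receptor of NK cells and cytotoxic T cells, held 27 to 34 estimated reads in sham, between 83 and 93 in SNI, and between 47 and 59 in SNI_G15 (1.51 ± 0.16 and -0.69 ± 0.14, edgeR adjusted p = 2.25e-05 and 0.0138). The granule enzyme gene Gzmb held 0, 6.99 and 0 reads in sham, 39.7, 79.1 and 94.4 in SNI, and 83.1, 57.7 and 67.5 in SNI_G15, so both injured groups lay above sham and overlapped each other. Gzmm, another granule enzyme gene, fell from 34 to 46 reads in sham to 15 to 24 in SNI (-1.03 ± 0.24). Of the defining receptor genes of NK cells, Ncr1 stayed between 9.73 and 17.7 reads and Klrd1 between 0 and 6 in every library. The summed level of the list was 9.9 to 11.8 CPM in sham, between 19.6 and 21.7 in SNI, and between 13.6 and 16.1 in SNI_G15, and the part of NK cells in the marker results was not tested.

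**Figure D4:**
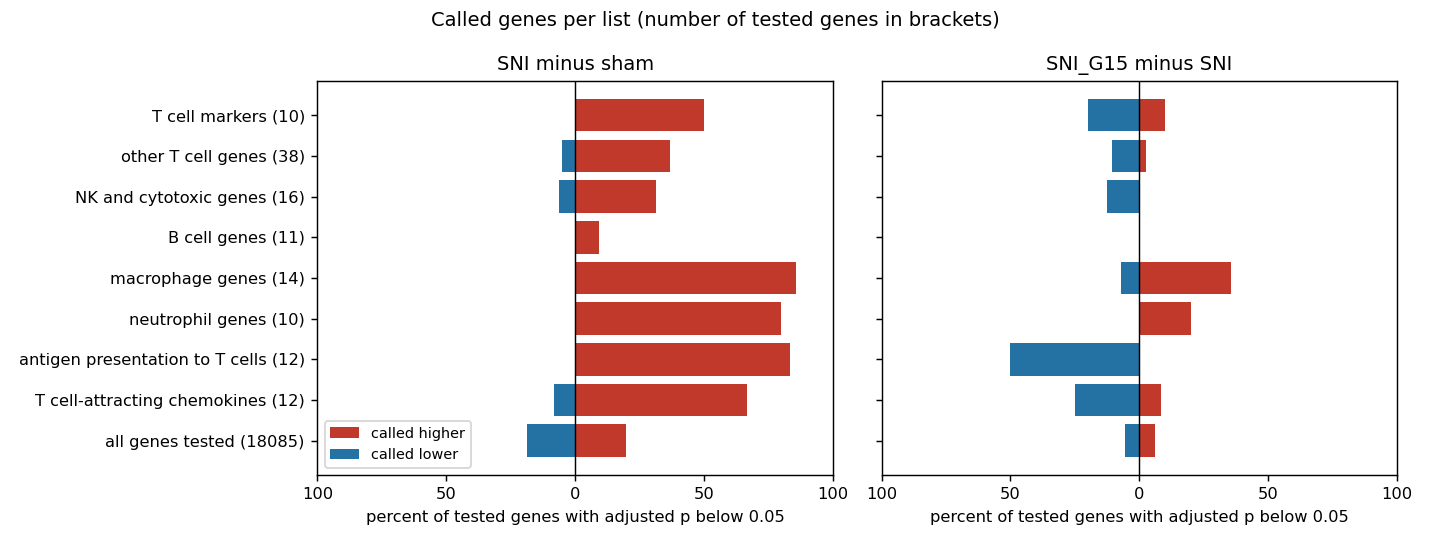
Percent of the tested genes of each list (y axis, number tested in brackets) called higher (right, red) and lower (left, blue) at an adjusted p below 0.05 in edgeR, for SNI minus sham and SNI_G15 minus SNI, with all 18085 genes tested as the lowest bar. The T cell markers had 5 of 10 genes higher in SNI, and in SNI_G15 against SNI they had 2 lower and 1 higher.

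Blood-borne cells also contribute RNA to a ganglion. The 8 erythroid genes all rose from sham to SNI, where 19.6% of all genes were called higher. All 8 fell from SNI to SNI_G15, where 5.36% of all genes were called lower. Their summed levels were 332 to 400 CPM in sham, between 1070 and 1120 in SNI, and between 629 and 739 in SNI_G15. The summed erythroid level moved in the same direction as the summed CD3 chains in both of these comparisons. In SNI_G15 the erythroid sum lay above sham, and the CD3 sum overlapped sham. Blood content itself was not measured. The part of blood in the CD3 chain results was not tested.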

How the data were processed

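RNA from rat DRG of 3 sham, 3 SNI and 3 SNI_G15 samples was sequenced as paired reads. The authors deposited FPKM per gene and per transcript, the gene value being the sum over its transcripts, and estimated counts without normalization, many of them with decimals. The aligner and counter are not given in the sources used here. The submitters' processing notes name the mouse builds GRCm38 and mm10, whereas the identifiers are rat RefSeq entries, so the build of the values is uncertain. Columns named for a control were taken as sham. TPM, group averages, correlation, component and plot tables were not used.

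After rounding, these counts went into edgeR's quasi-likelihood test (version 4.0.16, TMM, each fit holding just its own 6 libraries) in R 4.3.3 over 18085 genes with at least 10 counts summed over the 9 libraries, with Benjamini-Hochberg adjustment over all of them. The authors' methods name DESeq2, and a filter of FPKM of at least 1, which would keep a low gene only through the group where it is high. DESeq2 1.42.0, limma 3.58.1 on log2(FPKM + 0.1), other normalizations and filters, a fit of all 9 libraries, a replicate block and each library left out were alternatives. SE is the log2 fold change divided by the square root of the F statistic. CPM uses TMM factors over the 9 libraries. The tests were checked on simulated counts. Intervals and floors cover counting error only.

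The markers and the gene lists were chosen with earlier results of these data known. Named are all 10 markers, from other lists at most 5 genes with the smallest adjusted p among those called, and Foxp3, Cd8b, Cd28, Gzmb, Csf1r, Itgam, Cd68, Ncr1, Klrd1 and Cd79a. Some genes that this rule selects are left unreported. Of 20194 gene IDs, 18599 matched the RefSeq table of GRCr8, used for gene order, and promoters came from RefSeq. Same-numbered libraries of different groups did not deviate together, so the numbers were not taken as pairs.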

Additional observations from a re-analysis of the deposited data

How the results depend on the processing

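Calls on these markers rest on few reads, and depth limits what can be seen: apart from Cd4, the highest count of any marker was 72.0 estimated reads in a library. For SNI against sham, 5 markers were called, 2 with DESeq2 and 4 to 5 with single libraries left out. For SNI_G15 against SNI, 3 were called, and 1 to 3 with single libraries left out, 1 being the count without SNI replicate 2. For SNI_G15 against sham the count was 2 in each alternative run. With the replicate block the counts were 5, 2 and 2, the call lost being that of Cd3d for SNI_G15 against SNI (adjusted p = 0.0699). The correlations of same-numbered libraries lay between -0.1 and 0.054 and 0 of 9 was over 0.1, so the libraries share a number only. The CD3 chain ratio of SNI_G15 to SNI, 0.335, became 1.05 over all 10 markers, of which Cd4 holds most reads, and 0.784 without Cd4. That of SNI_G15 to sham, 0.735, became 2.13 and 1.34. With single libraries left out these ratios ranged from 0.272 to 0.407 and from 0.595 to 0.891, and that of SNI to sham from 1.94 to 2.4. Direction turned for Cd5 in SNI against sham without SNI replicate 2, the single SNI library with reads of it, and for differences near 0. For SNI_G15 against SNI, Cd247 ranged from -0.30 to 0.20 (log2) with single libraries left out. For SNI_G15 against sham, Cd3g ranged from -0.82 to 0.24, Cd2 from -0.17 to 0.18 and Lck from -0.16 to 0.17. In that comparison the log2 fold change of Cd2 was 0.0266 with library totals alone and 0.0322 in limma, against -0.01 in the main fit. That of Lck was -0.0013 with the replicate block, against 0.01 in the main fit. Neither gene was called there in any alternative (lowest adjusted p 0.698 for Cd2 and 0.545 for Lck). The causes were not tested. Under the FPKM filter Cd247, Cd5 and Zap70 were not tested. For SNI_G15 against SNI, DESeq2 gave no adjusted p for Cd3d, Cd3g and Cd5, which were not counted as lost.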

Other observations

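Genes of the cells and signals that T cells meet were counted from lists of the same kind. Of 12 chemokine genes that attract T cells, 8 rose and 1 fell from sham to SNI, where 19.6% of all genes were called higher and 18.6% lower. From SNI to SNI_G15 1 rose and 3 fell, where 5.94% of all genes were called higher and 5.36% lower. Cxcl9, a ligand of the receptor encoded by Cxcr3, held 41 to 55 estimated reads in sham, between 228 and 276 in SNI, and between 72 and 87 in SNI_G15 (log2 fold change 2.32 ± 0.13 from sham to SNI and -1.60 ± 0.11 from SNI to SNI_G15, edgeR adjusted p = 2e-07 and 4.53e-05). Cxcl10, a ligand of the same receptor, fell by 0.64 on the log2 scale (± 0.08) from SNI to SNI_G15 and held 156 to 162 reads there, below the 195 to 214 of sham. Ccl21, which guides naive T cells, went the other way, with 231 to 324 reads in sham, between 58 and 60 in SNI, and between 199 and 215 in SNI_G15 (-2.21 ± 0.14 and 1.82 ± 0.10).

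The lists in this paragraph stand beside the same shares of all genes. These were 19.6% higher and 18.6% lower from sham to SNI, and 5.94% higher and 5.36% lower from SNI to SNI_G15. Of 12 genes that present antigen to T cells, 10 rose and 0 fell from sham to SNI, and 0 rose and 6 fell from SNI to SNI_G15. RT1-Bb, a chain of an MHC class II molecule that CD4 binds, held 117 to 145 estimated reads in sham, between 1118 and 1164 in SNI, and between 596 and 656 in SNI_G15 (3.06 ± 0.07 and -0.84 ± 0.06, edgeR adjusted p = 2.45e-10 and 3.51e-05). Tap1, which carries peptides towards the MHC molecules that CD8 T cells read, fell by 0.52 (± 0.07) from SNI to SNI_G15. Of 11 tested B cell genes 1 rose in SNI (Cr2, with 0 to 5 reads in sham and 9 to 13 in SNI, adjusted p = 0.0431, lost in 8 of its alternatives) and 0 differed between SNI_G15 and SNI. Cd79a, part of the B cell receptor, held 6.93 to 25.1 reads in every library. Of 10 neutrophil genes 8 rose from sham to SNI. From SNI to SNI_G15 2 rose, the granule enzyme genes Mpo and Elane, which were not among those 8.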
